A study of Mus musculus with 12 samples.

Results

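The sodium pump, or Na,K-ATPase, was followed through its 4 beta subunit genes, *Atp1b1*, *Atp1b2*, *Atp1b3* and *Atp1b4*, and through *Fxyd1*, which encodes phospholemman, in single fibers of mouse muscle. These were 5 genes of the 55367 gene symbols listed in every sample, matched by name, and all 5 were among the 14425 genes that passed the limit on low values. They were picked on the basis of the same 12 samples, whose values were already known, so their levels and the differences between the groups are given here as a description and without a test. Tests are given only for genes of the pathway outside these 5. The pathway lists were also drawn up with earlier results of these data known, which may have shaped their counts and p-values.

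The extensor digitorum longus (EDL), a fast muscle of the lower leg, was dissociated with collagenase, and RNA was sequenced from isolated fibers of C57BL/6J mice. The Young group (n = 4) came from mice aged 3 to 4 months. The 2 aged groups came from mice aged 26 to 28 months, whose fibers were stained with Fluo-4, a dye whose fluorescence rises with Ca2+, and separated under a fluorescence stereomicroscope into fibers with normal staining (Fluo-4 normal, n = 4) and with abnormal staining (Fluo-4 abnormal, n = 4). The paper links the abnormal staining to the sarcoplasmic reticulum and to tubular aggregate-like structures. In the normal regions of the aged fibers it found no difference in Fluo-4 intensity. It describes abnormal fibers in aged males and hardly any in aged females. The numbers of fibers and mice behind a sample, and their sex, are not given in the sources used here. Spread and p-values thus measure the difference between samples, which may be partly technical.

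The pump moves sodium out of the cell and potassium in, at the cost of ATP, and in muscle it restores the ion gradients that each action potential runs down. A catalytic subunit does the transport, the beta subunit is needed for it to fold and reach the membrane, and an FXYD protein adjusts its activity. In skeletal muscle the beta1 protein is known from oxidative fibers and the beta2 protein from fast glycolytic fibers. *Atp1b4* stands apart, since in placental mammals its protein sits in the nuclear envelope of muscle and is no longer part of the pump.

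The values are TPM, transcript abundances corrected for transcript length and scaled to the same total in every sample. Levels can thus be set side by side between genes within a sample. Between samples a comparison also depends on the scaling, and some results below changed with it. Each sample summed to 1000000 TPM, and the read depth behind a value is unknown. The fibers carried the defining transcripts of fast myofibers. The summed level of *Acta1*, *Ckm*, *Mylpf*, *Tnnt3* and *Atp2a1* ranged from 120599 to 162192 TPM. Marker lists of 8 other cell types summed to at most 482 TPM, a level reached by the erythroid list in Fluo-4 normal replicate 2, a sample that also had the highest endothelial (25.0 TPM) and fibroblast (78.6 TPM) sums of all 12 samples. As these are bulk samples of fibers, fewer fibers of a type and less RNA per fiber cannot be told apart.

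*Atp1b1*, which encodes the beta1 subunit, was the member with the largest difference between groups on the log2(TPM + 1) scale. It was at 27.2, 25.8, 24.8 and 28.8 TPM in Young replicates 1 to 4. Fluo-4 normal fibers had 42.0, 48.7, 45.9 and 42.6 TPM, and Fluo-4 abnormal fibers 13.5, 10.8, 5.22 and 6.39 TPM. The 3 groups did not overlap, with every Fluo-4 normal sample above every Young sample and every Fluo-4 abnormal sample below both. The group means were 26.6 ± 1.74, 44.8 ± 3.13 and 8.97 ± 3.85 TPM (SD, n = 4 each), so that the mean of the Fluo-4 normal fibers was 5.00 times that of the Fluo-4 abnormal fibers and 1.68 times that of the Young fibers. On the log2(TPM + 1) scale the difference was -2.28 ± 0.21 (SE) between Fluo-4 abnormal and Fluo-4 normal fibers, -1.55 ± 0.21 between Fluo-4 abnormal and Young fibers and 0.73 ± 0.21 between Fluo-4 normal and Young fibers.

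**Figure D1:**
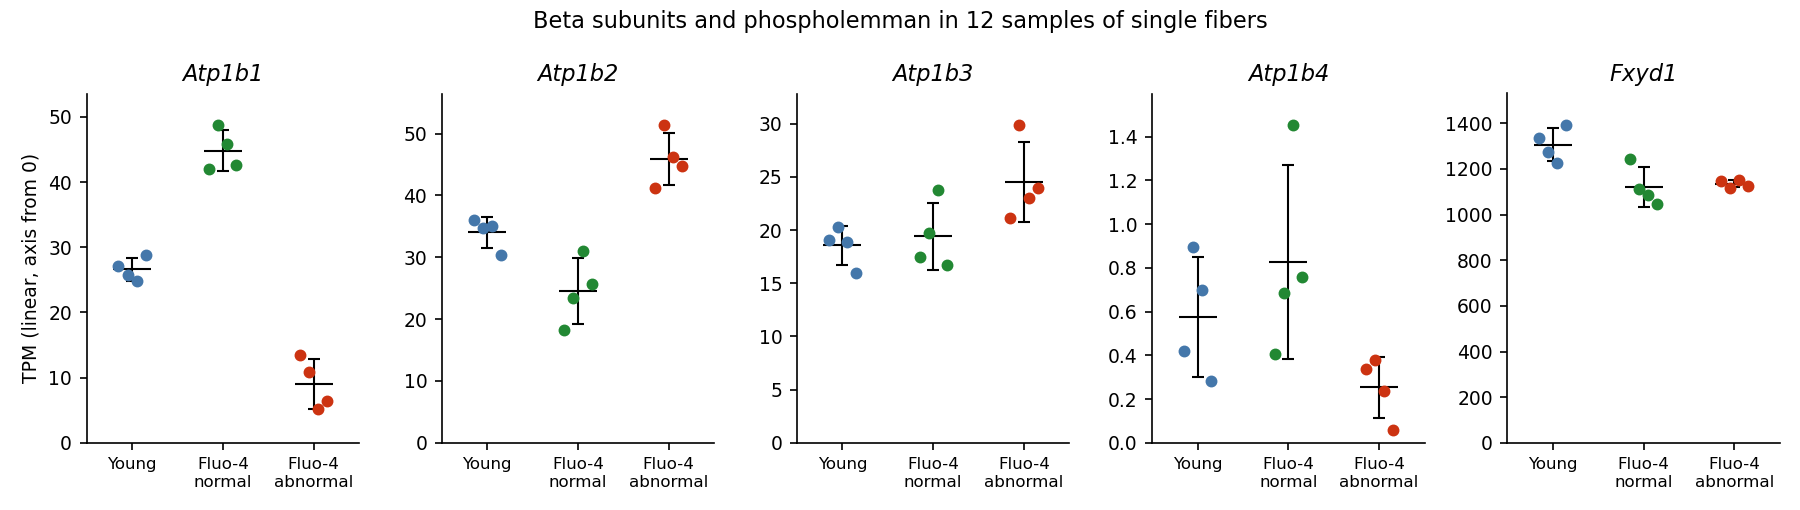
TPM of the 5 genes (y axes, linear from 0, a separate scale for each gene) in Young, Fluo-4 normal and Fluo-4 abnormal fibers, with 1 point per sample (replicates 1 to 4 from left to right), the mean as a horizontal line and the SD as error bars. *Atp1b1* was highest in Fluo-4 normal fibers (42.0 to 48.7 TPM) and *Atp1b2* in Fluo-4 abnormal fibers (41.3 to 51.3 TPM), whereas *Fxyd1* stayed between 1045 and 1392 TPM in all 12 samples.

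*Atp1b1* lies on the minus strand at chr1:164264678-164285957 (GRCm39). The bases before its transcription start are shown because this gene had the largest difference of the 5. They are from the RefSeq promoter table (GRCm38.p6), located in GRCm39 by their sequence, and end 5 bases before the RefSeq start. The first bases of 1 longer GENCODE transcript fall within the window. Capitals mark a TATA box (TATATA), the GC boxes and a CCAAT box.
Atp1b1, chr1:164285930-164286174, minus strand: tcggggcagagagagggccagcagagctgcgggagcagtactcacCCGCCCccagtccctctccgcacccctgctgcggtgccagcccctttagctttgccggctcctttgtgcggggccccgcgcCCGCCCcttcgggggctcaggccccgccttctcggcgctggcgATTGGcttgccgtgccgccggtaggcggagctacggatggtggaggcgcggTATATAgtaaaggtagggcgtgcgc
Both strands were searched. The TATA box (TATAAA or TATATA) had 1 match, and 15.4% of the 32851 promoters of the table hold at least 1 in a window of the same 245 bases. The GC box (GGGCGG) had 2 matches, both as CCGCCC (32.1% of promoters), and the CCAAT box (CCAAT) had 1, as ATTGG (33.5% of promoters). No E-box (CANNTG, 65.7% of promoters) and no MEF2 site (0.5% of promoters) matched, and none of the matches overlapped each other. A match describes these letters only. A promoter was listed for 4 of the 5 genes, *Atp1b2* being the exception.

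On the genome, 877 exon bases of *Atp1b1* are shared with 2 genes on the opposite strand, *Nme7* and *Gm32391*, and the libraries kept no strand, so reads from those bases cannot be assigned. *Nme7* had group means of 0.595 to 0.964 TPM. *Gm32391* had means of 2.23 TPM in Young, 1.80 TPM in Fluo-4 normal and 0.403 TPM in Fluo-4 abnormal fibers. Both were low beside *Atp1b1*, and *Gm32391* was, like *Atp1b1*, lowest in the Fluo-4 abnormal fibers. The other 4 genes shared no exon bases with another gene, and none of the 5 had a near-identical copy of its transcript elsewhere in the genome.

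*Atp1b2*, which encodes the beta2 subunit (chr11:69487651-69496851, minus strand), had the opposite order of group means. It was at 36.0, 34.7, 35.1 and 30.3 TPM in Young fibers, at 18.2, 23.4, 31.0 and 25.6 TPM in Fluo-4 normal fibers and at 41.3, 51.3, 46.2 and 44.7 TPM in Fluo-4 abnormal fibers. Every Fluo-4 abnormal sample was above every other sample, whereas Young and Fluo-4 normal samples overlapped through Fluo-4 normal replicate 3 and Young replicate 4. The mean of the Fluo-4 abnormal fibers, 45.9 ± 4.19 TPM, was 1.87 times that of the Fluo-4 normal fibers (24.5 ± 5.27 TPM) and 1.35 times that of the Young fibers (34.0 ± 2.52 TPM). The corresponding log2 differences were 0.89 ± 0.13 and 0.42 ± 0.13, and that of Fluo-4 normal from Young fibers was -0.48 ± 0.13.

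*Atp1b3*, which encodes the more widely expressed beta3 subunit (chr9:96214674-96246814, minus strand), varied less. It was at 19.1, 20.3, 18.8 and 16.0 TPM in Young fibers, at 17.5, 19.7, 23.8 and 16.7 TPM in Fluo-4 normal fibers and at 21.1, 29.9, 23.0 and 23.9 TPM in Fluo-4 abnormal fibers. All 4 of the latter were above the Young samples, and they overlapped with the Fluo-4 normal samples through Fluo-4 normal replicate 3. The log2 difference of Fluo-4 abnormal fibers was 0.32 ± 0.13 from Fluo-4 normal and 0.38 ± 0.13 from Young fibers, and that of Fluo-4 normal from Young fibers was 0.06 ± 0.13, less than its error. With TMM-type scaling factors, which set the median gene to the same level in all groups, the difference from Fluo-4 normal fibers was 0.10.

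*Atp1b4* (chrX:37405026-37425663, plus strand) was near the lower end of what the files list. It was at 0.421, 0.896, 0.698 and 0.283 TPM in Young fibers, at 0.407, 0.685, 1.45 and 0.759 TPM in Fluo-4 normal fibers and at 0.336, 0.378, 0.238 and 0.0600 TPM in Fluo-4 abnormal fibers. All 4 of the latter were below the Fluo-4 normal samples and overlapped with the Young samples. The log2 difference of Fluo-4 abnormal from Fluo-4 normal fibers was -0.52 ± 0.17 with a pseudocount of 1 TPM and -1.39 with a pseudocount of 0.1 TPM, as a pseudocount of 1 TPM exceeds most of these values. The ratio of the means was 0.306, and the number of reads behind it is unknown.

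*Fxyd1* (chr7:30751092-30756677, minus strand) was by far the most abundant of the 5 and the one that varied least. It was at 1334, 1273, 1227 and 1392 TPM in Young fibers, at 1246, 1112, 1084 and 1045 TPM in Fluo-4 normal fibers and at 1145, 1118, 1153 and 1126 TPM in Fluo-4 abnormal fibers. Both aged groups had lower means than the Young group, 1122 ± 87.1 and 1136 ± 16.3 TPM against 1306 ± 72.0 TPM, and 1 Fluo-4 normal sample, replicate 1, lay within the Young range. The log2 difference from Young fibers was -0.22 ± 0.07 for Fluo-4 normal and -0.20 ± 0.07 for Fluo-4 abnormal fibers. Between the aged groups it was 0.02 ± 0.07, and -0.21 with TMM-type factors, so its sign depended on the scaling. Phospholemman inhibits the pump until it is phosphorylated.

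The groups did not overlap for 3 of the 5 genes between Fluo-4 abnormal and Fluo-4 normal fibers (*Atp1b1*, *Atp1b2* and *Atp1b4*), against 14.0% of all genes tested. They did not overlap for 1 between Fluo-4 normal and Young fibers (*Atp1b1*; 7.99% of all genes tested) and for 4 between Fluo-4 abnormal and Young fibers (all but *Atp1b4*; 16.2% of all genes tested). As the 5 genes were picked with these values known, nothing is read from their counts. Their median log2 difference was 0.02, 0.06 and -0.20 in these 3 comparisons, and that of all genes tested was 0.10, -0.02 and 0.07. TMM-type factors moved the median gene between Fluo-4 abnormal and Fluo-4 normal fibers to 0.00.

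The order of the levels within a group also differed. In Young fibers it was *Fxyd1*, *Atp1b2*, *Atp1b1*, *Atp1b3* and *Atp1b4*, and no neighbours in that order overlapped in their ranges. In Fluo-4 normal fibers *Atp1b1* stood above *Atp1b2*, and the ranges of *Atp1b2* and *Atp1b3* overlapped, although *Atp1b2* was the higher of the pair in 4 of 4 samples. Among the Fluo-4 abnormal fibers *Atp1b2* led the beta subunits, followed by *Atp1b3* and then *Atp1b1*, with no overlap between neighbours. *Fxyd1* was first and *Atp1b4* last in all 3 groups.

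As shares of the summed beta transcripts, *Atp1b1* made up 33.5 ± 3.24% in Young, 50.3 ± 3.93% in Fluo-4 normal and 11.2 ± 4.74% in Fluo-4 abnormal fibers (SD, n = 4 each). Its share by sample was 32.9, 31.6, 31.2 and 38.2% among Young, 53.8, 52.7, 45.0 and 49.7% among Fluo-4 normal and 17.7, 11.7, 6.99 and 8.51% among Fluo-4 abnormal fibers. The groups did not overlap. *Atp1b2* made up 42.6 ± 1.72, 27.2 ± 3.45 and 57.8 ± 3.53%, ranging from 40.2 to 44.2% in Young, from 23.3 to 30.3% in Fluo-4 normal and from 54.2 to 61.8% in Fluo-4 abnormal fibers, again without overlap. *Atp1b3* made up 23.2 ± 1.52, 21.6 ± 1.62 and 30.7 ± 2.08%, with all 4 Fluo-4 abnormal samples (27.7 to 32.3%) above the other 8 (19.5 to 24.8%). *Atp1b4* reached at most 1.42% in any sample.

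**Figure D2:**
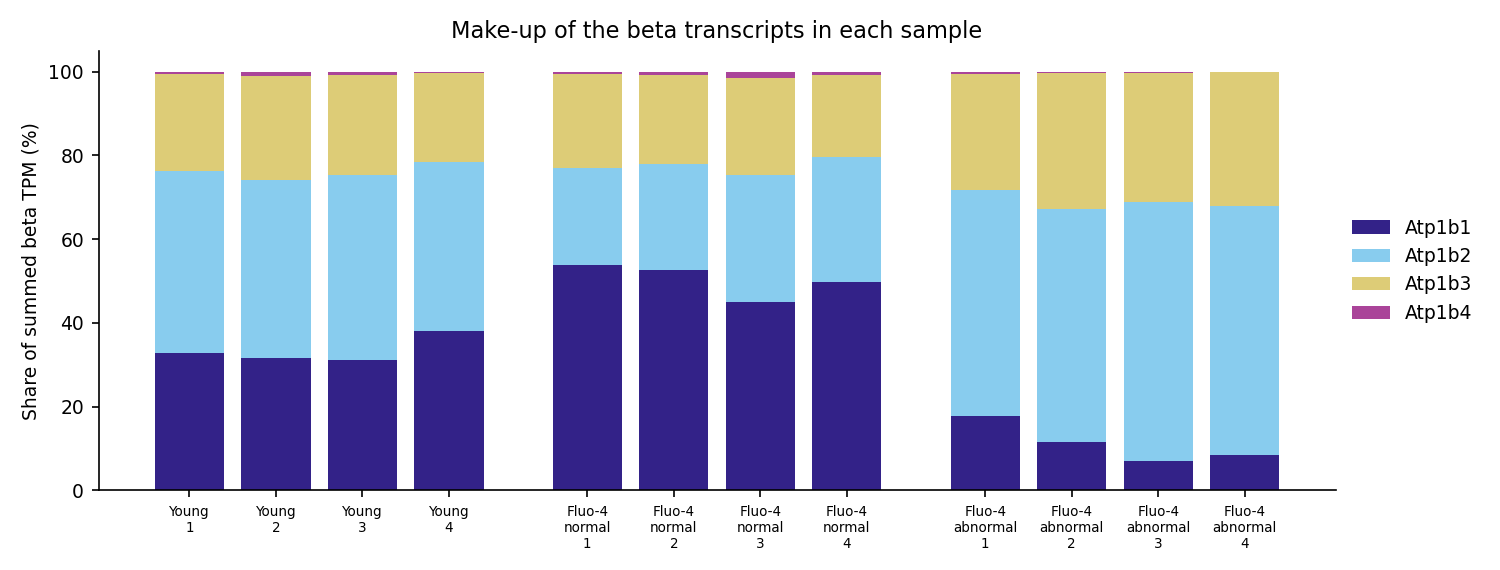
Share of each beta subunit gene in the summed TPM of *Atp1b1* to *Atp1b4* (y axis, percent) in each of the 12 samples (x axis, group and replicate). The *Atp1b1* share ran from 45.0 to 53.8% among Fluo-4 normal and from 6.99 to 17.7% among Fluo-4 abnormal samples, while the *Atp1b3* share lay between 19.5 and 32.3% throughout.

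Relative to its level, the sum of the 4 beta genes differed less between the group means than any of the 4 did. It was 79.8 ± 3.26 TPM in Young, 89.6 ± 10.2 TPM in Fluo-4 normal and 79.6 ± 8.55 TPM in Fluo-4 abnormal fibers, and all 3 ranges overlapped (75.3 to 82.7, 78.1 to 102.1 and 74.6 to 92.4 TPM). The ratio of *Atp1b1* to *Atp1b2* was 0.756, 0.743, 0.706 and 0.949 in the Young samples. Among Fluo-4 normal samples the ratio was 2.30, 2.09, 1.48 and 1.66, and among Fluo-4 abnormal samples 0.327, 0.210, 0.113 and 0.143. *Atp1b1* thus exceeded *Atp1b2* in 4 of 4 Fluo-4 normal samples and in no other sample.

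**Figure D3:**
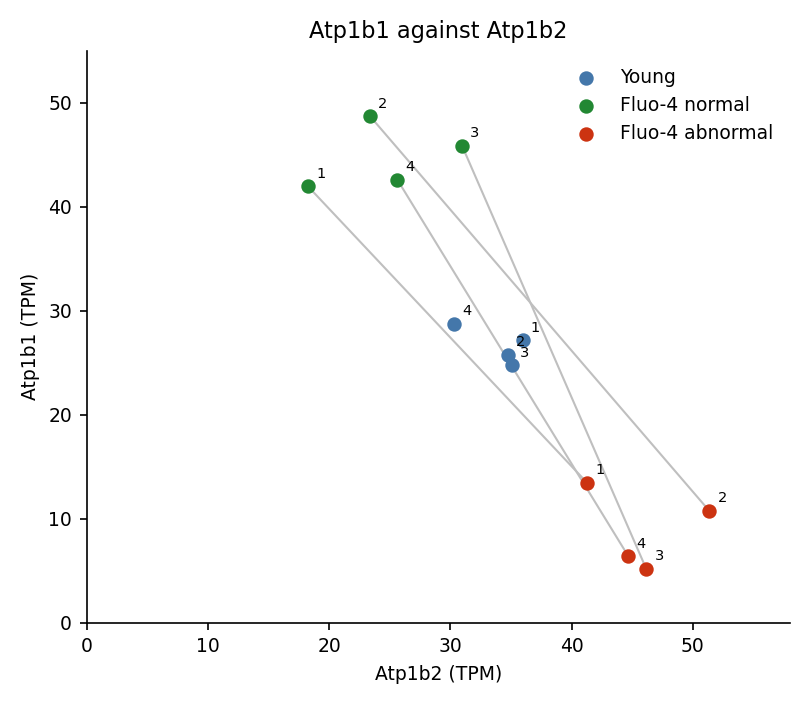
*Atp1b1* (y axis, TPM) against *Atp1b2* (x axis, TPM), 1 point per sample with its replicate number. Gray lines join aged samples of the same number. All 4 lines run down and to the right, from between 42.0 and 48.7 TPM of *Atp1b1* (Fluo-4 normal) to between 5.22 and 13.5 TPM (Fluo-4 abnormal).

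Between aged samples of the same number, the Fluo-4 abnormal sample had less *Atp1b1*, by a factor of 3.11, 4.52, 8.79 and 6.67 for numbers 1 to 4. Its *Atp1b2* was higher, by a factor of 2.26, 2.20, 1.49 and 1.74. The direction was thus the same in 4 of 4 numbers for both genes. *Atp1b3* was higher in the Fluo-4 abnormal sample in 3 of 4 numbers, with ratios of 1.21, 1.51, 0.969 and 1.43, and *Atp1b4* was lower in 4 of 4, with ratios of 0.826, 0.552, 0.164 and 0.0791. For *Fxyd1* the ratios lay between 0.919 and 1.08. Over the 12 samples *Atp1b1* and *Atp1b2* had a Pearson r of -0.84, and of -0.03 once each group's mean was taken off. *Atp1b2* and *Atp1b3* had an r of 0.71, and of 0.73 with the group means taken off. Both values are across samples of 3 separate groups scaled to the same total, and are a description.

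The genes whose pattern was most like that of *Atp1b1* over the 12 samples, among 5994 genes with a mean of at least 5 TPM, were *Grb14* (r = 0.98), which encodes an adaptor of the insulin receptor, *Ndufa9* (r = 0.98), which encodes a part of respiratory complex I, and *Mb* (r = 0.98), which encodes myoglobin. With the group means taken off, r was 0.85, 0.88 and 0.90. *Mb* was at 862 ± 162, 1299 ± 411 and 296 ± 137 TPM in Young, Fluo-4 normal and Fluo-4 abnormal fibers, and *Grb14* at 10.0 ± 1.32, 16.0 ± 2.20 and 3.03 ± 1.57 TPM. For *Atp1b2* they were *Bves* (r = 0.97), *Copb2* (r = 0.97), which encodes a coat protein of Golgi vesicles, and *Acvr2a* (r = 0.97), an activin receptor. For *Atp1b3* they were *Micu3* (r = 0.93), a regulator of mitochondrial calcium uptake, *Syf2* (r = 0.92) and *Sorbs2* (r = 0.92). For *Fxyd1* they were *Washc3* (r = 0.92), *Fitm1* (r = 0.90), which takes part in lipid droplet formation, and *Mrpl58* (r = 0.89).

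The myosin heavy chains, which mark fiber types, are given as a description, and no test was made between their groups. *Myh4*, of the fastest (type 2B) fibers, made up 96.9 to 98.6% of the transcripts of *Myh1*, *Myh2*, *Myh4* and *Myh7* in Young, 93.7 to 99.2% in Fluo-4 normal and 98.9 to 99.7% in Fluo-4 abnormal samples. *Myh1*, of type 2X fibers, was at 258, 147, 158 and 262 TPM in Young fibers. It was at 46.2, 542, 488 and 262 TPM in Fluo-4 normal fibers and at 64.5, 147, 48.5 and 44.3 TPM in Fluo-4 abnormal fibers. *Atp1b1* and *Myh1* had an r of 0.70 over the 12 samples, and of 0.40 with the group means taken off. Fluo-4 normal replicate 1 had as little *Myh1* as the Fluo-4 abnormal samples. Its *Atp1b1*, 42.0 TPM, was the lowest of the Fluo-4 normal samples, within 1 TPM of replicate 4. *Atp1b1* and *Myh1* ranked the Fluo-4 normal samples in the same order, replicates 2, 3, 4 and 1 from high to low. A part of fiber type in these levels was not tested. *Myh2* and *Myh7*, of type 2A and slow fibers, were at most 34.6 and 0.205 TPM. When the *Myh4* share entered the fit, the log2 difference of *Atp1b1* between Fluo-4 normal and Young fibers was 0.63. When a block for the replicate number entered too, its difference between Fluo-4 abnormal and Fluo-4 normal fibers was -1.82.

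**Figure D4:**
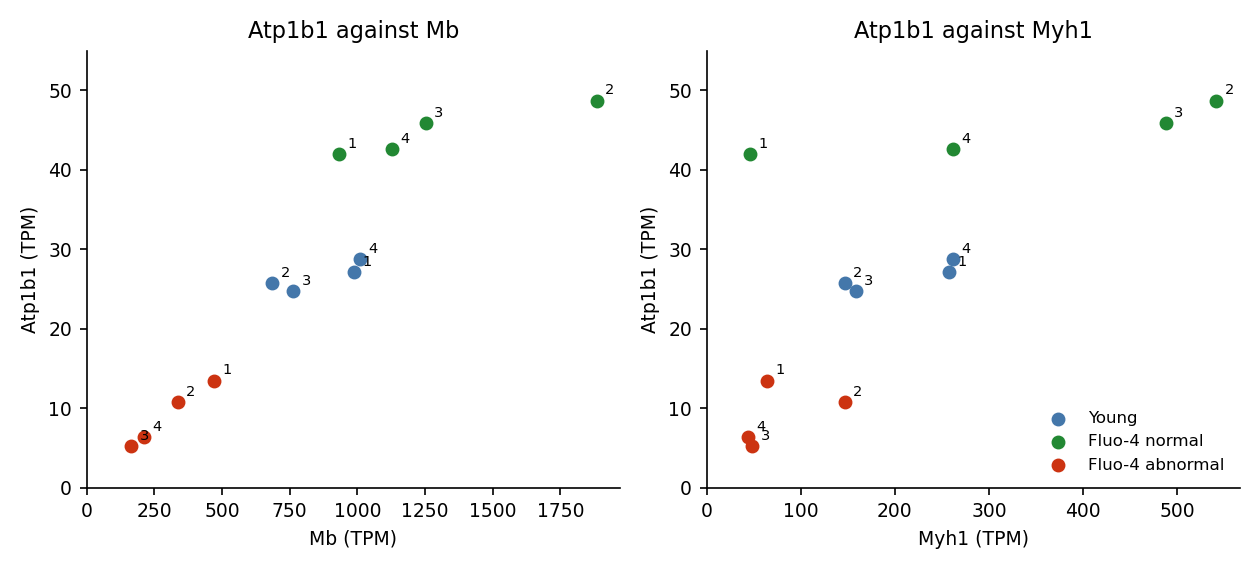
*Atp1b1* (y axes, TPM) against *Mb* (left, TPM) and *Myh1* (right, TPM), 1 point per sample with its replicate number. Over the 12 samples *Atp1b1* had an r of 0.98 with *Mb* and of 0.70 with *Myh1*. Fluo-4 normal replicate 1 lies at 934 TPM of *Mb* and 46.2 TPM of *Myh1*. Its *Atp1b1* is the lowest of the Fluo-4 normal samples (42.0 to 48.7 TPM).

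The rest of the pathway was taken as 35 further genes in 6 lists, of which 30 had values above the limit and were tested. The gastric and colonic proton pumps *Atp4a*, *Atp4b* and *Atp12a* were listed at 0 TPM in all 12 samples, and *Nkain3* and *Slc8a2* were below the limit. Between Fluo-4 abnormal and Fluo-4 normal fibers, 4 of the 30 rose and 1 fell at an adjusted p-value under 0.05 (limma, Benjamini-Hochberg over all genes tested), against 7.36% of all genes that rose and 1.99% that fell. Between Fluo-4 abnormal and Young fibers, 2 rose and 1 fell (6.09% and 2.41% of all genes), and between Fluo-4 normal and Young fibers 1 rose and 0 fell (0.562% and 0.589% of all genes). With the replicate number as a block, 10 of the 30 differed between the aged groups (9 higher, 1 lower). In that fit 2281 of all 14425 genes differed (1874 higher). The 5 pathway genes added were *Abcc9*, *Slc12a2*, *Scn4a*, *Slc8a3* and *Prkacb*, which were higher in the Fluo-4 abnormal fibers by 0.38 to 0.59. With the block and the *Myh4* share in the same fit 0 of the 30 passed (limma), although 9 had an unadjusted p-value under 0.05. Of all 14425 genes, 22 passed there. Scaling moved the balance of the calls. With TMM-type factors, 308 of 852 genes that differed between the aged groups were higher in Fluo-4 abnormal fibers, against 1062 of 1349 without them, and 1 pathway gene rose (*Clcn1*) and 1 fell (*Fxyd6*). The same factors left 446 of 1139 genes higher between Fluo-4 abnormal and Young fibers, against 879 of 1227 without them, and 1 pathway gene rose (*Ppp1r1a*) and 2 fell (*Fxyd6* and *Kcnj11*).

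Of the 6 other FXYD genes, 1 passed the test. *Fxyd6*, which encodes a pump regulator known from brain and other tissues, was at 21.2 ± 3.43 TPM in Young fibers. It was at 24.6, 39.5, 29.7 and 29.0 TPM in Fluo-4 normal and at 16.0, 12.3, 6.09 and 11.5 TPM in Fluo-4 abnormal fibers, and the aged groups did not overlap. It fell by 1.39 on the log2 scale (SE 0.23, adjusted p = 0.0033) against Fluo-4 normal and by 0.89 (SE 0.23, adjusted p = 0.029) against Young fibers. The first of these was -0.97 (adjusted p = 0.063) when the *Myh4* share entered the fit and -0.60 (adjusted p = 0.21) when the block entered too. The second was lost in 9 of 22 alternatives, with adjusted p-values of 0.051 to 0.097 when Young replicate 1, 2 or 4 or Fluo-4 abnormal replicate 2, 3 or 4 was left out, 0.0503 with no filter, 0.075 with only the groups compared and 0.084 with the *Myh4* share. *Fxyd6* and *Atp1b1* had an r of 0.95 over the 12 samples and of 0.83 with the group means taken off. *Fxyd5* was at most 2.61 TPM and *Fxyd2*, *Fxyd3*, *Fxyd4* and *Fxyd7* at most 1.24 TPM, and *Fxyd1* made up 96.2 to 99.4% of all FXYD transcripts.

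Of the 7 genes that act on phospholemman, 3 rose between Fluo-4 normal and Fluo-4 abnormal fibers. *Ppp1ca*, a catalytic subunit of protein phosphatase 1, rose by 0.30 ± 0.07 (adjusted p = 0.015). *Prkar1a*, a regulatory subunit of protein kinase A, rose by 0.36 ± 0.09 (adjusted p = 0.029). *Prkaca*, a catalytic subunit of this kinase, which phosphorylates phospholemman, rose by 0.30 ± 0.08 (adjusted p = 0.035). With TMM-type factors, these differences were 0.07, 0.14 and 0.08 and none passed (adjusted p of 0.72, 0.35 and 0.64). Without Fluo-4 abnormal replicate 2 none of the 3 passed either (adjusted p of 0.051 to 0.099). *Prkar1a* was also lost without replicate 1 or 4 of either aged group or Fluo-4 normal replicate 2 (0.051 to 0.076), and *Prkaca* without Fluo-4 normal replicate 1, 2 or 3 or Fluo-4 abnormal replicate 3 (0.064 to 0.083). In all, the call was lost in 4 of 22 alternatives for *Ppp1ca*, 10 for *Prkar1a* and 11 for *Prkaca*. None of them passed with only the groups compared (adjusted p of 0.056, 0.087 and 0.074) or with the block and the *Myh4* share. Scaling without mitochondrially-encoded genes lost *Prkar1a* and *Prkaca* (0.078 and 0.098), and the *Myh4* share alone lost *Prkaca* (0.15). *Ppp1r1a*, an inhibitor of protein phosphatase 1, was higher in both aged groups, at 76.0 ± 9.27 and 76.8 ± 7.40 TPM against 41.4 ± 7.17 TPM in Young fibers. It rose by 0.87 ± 0.12 in Fluo-4 normal (adjusted p = 0.0049) and by 0.88 ± 0.12 in Fluo-4 abnormal fibers (adjusted p = 0.00097), while the aged groups differed by 0.02 ± 0.12 (adjusted p = 0.96). The rise in Fluo-4 normal fibers had an adjusted p of 0.054 when only the 2 groups compared were fitted. *Ppp1r1a* shares exon bases with *Pde1b*, which was at most 0.0960 TPM.

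Of the 6 sodium-coupled transporters tested, 1 passed. *Slc12a2*, the sodium, potassium and chloride cotransporter NKCC1, rose by 0.80 ± 0.23 between Young (8.89 ± 1.47 TPM) and Fluo-4 abnormal fibers (16.2 ± 2.99 TPM; adjusted p = 0.045). This call was lost in 13 of 22 alternatives. Its adjusted p was 0.065 to 0.14 without any 1 of the Young samples, Fluo-4 normal replicate 2 or 4, or Fluo-4 abnormal replicate 2, 3 or 4, and 0.058 with TMM-type factors, 0.052 with scaling without mitochondrially-encoded genes, 0.071 with no filter and 0.068 with all annotated genes. Of the 6 channels of the action potential, *Clcn1*, the chloride channel of muscle, rose between Fluo-4 normal (46.0, 56.9, 67.3 and 66.7 TPM) and Fluo-4 abnormal fibers (83.5, 101.2, 89.8 and 90.0 TPM), by 0.63 ± 0.12 (adjusted p = 0.0077), without overlap. Its estimate was at least 0.40 in all 22 alternatives, and the call was lost in 1 of them, the block with the *Myh4* share (adjusted p = 0.21). The other 5 channels passed in none of the 3 comparisons when all 12 samples and 14425 genes were fitted without block, covariate or scaling factors. Between the aged groups the filter of 5 TPM gave 8 calls among the 18 pathway genes it left, against 1710 of 6348 genes in all. The 8 are not listed here by gene. With the block, *Abcc9* and *Scn4a* rose between the aged groups (adjusted p of 0.0065 and 0.033), and *Kcnj11*, the pore of the ATP-sensitive potassium channel, fell by 0.61 between Young and Fluo-4 normal fibers (adjusted p = 0.030). Same-numbered Young and Fluo-4 normal samples had correlations of -0.08 to 0.23, within the -0.16 to 0.25 of different numbers. The block thus had no shown pairing behind it there. With TMM-type factors *Kcnj11* fell by 0.56 in Fluo-4 normal (adjusted p = 0.030) and by 0.49 in Fluo-4 abnormal fibers (adjusted p = 0.020), both against Young fibers. Neither *Snw1* and *Smad7*, which are known as a partner and a target of the *Atp1b4* protein, nor *Nkain1* and the other tested interacting proteins passed (smallest adjusted p of *Snw1* 0.28, at 29.4 to 33.6 TPM, and of *Nkain1* 0.47, at 1.18 to 1.55 TPM). *Snw1* shares 3262 exon bases with 2 genes, among them *Slirp*, at 93.3 to 105 TPM, so its level is uncertain.

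**Figure D5:**
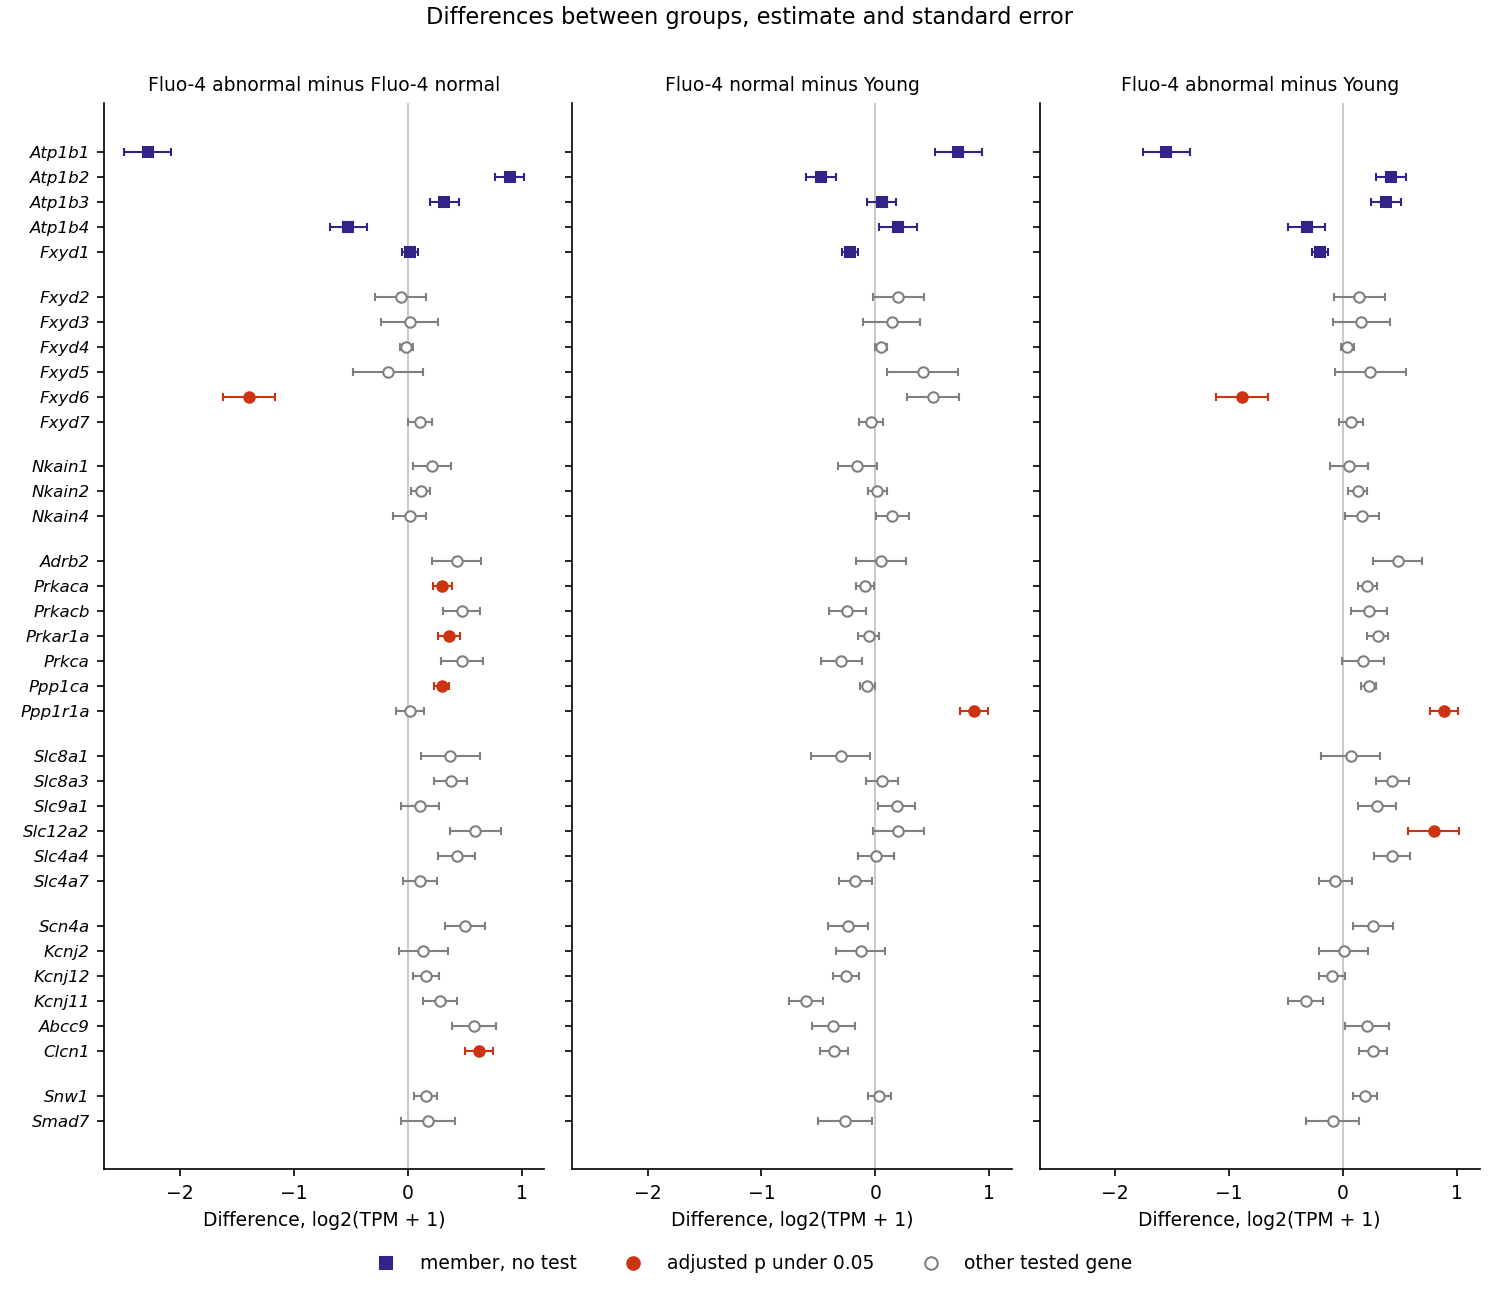
Differences between the groups on the log2(TPM + 1) scale (x axes) for the 5 subunit genes (squares, no test) and the 30 tested pathway genes (circles, filled where the adjusted p was under 0.05), with the standard error as bars, in the 3 comparisons. Between Fluo-4 abnormal and Fluo-4 normal fibers *Atp1b1* (-2.28) and *Fxyd6* (-1.39) lie farthest to the left, and *Atp1b2* (0.89) farthest to the right.

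Markers of other cells were set beside these values. The immune list (*Ptprc*, *Cd68*, *Adgre1*, *Csf1r* and *Cd3e*) summed to 2.63 to 5.71 TPM in the Fluo-4 abnormal samples, above the 1.02 to 1.69 TPM of the Fluo-4 normal and the 0.794 to 1.98 TPM of the Young samples, with 0, 1 and 2 of its 5 markers at 0 TPM throughout a group. Of its 5 genes, *Cd3e*, of T cells, was the one whose Fluo-4 abnormal samples (2.10 to 4.86 TPM) lay above all others (0.608 to 0.854 TPM in Fluo-4 normal, 0.780 to 1.54 TPM in Young), and *Ptprc*, *Cd68*, *Adgre1* and *Csf1r* overlapped between the aged groups. The Schwann and glial list summed to 3.63 to 7.98 TPM in Fluo-4 abnormal, 1.42 to 6.60 TPM in Fluo-4 normal and 0.773 to 1.81 TPM in Young samples. The adipocyte list was at 0 TPM in all Young and all Fluo-4 abnormal samples. The endothelial, fibroblast, erythroid, satellite cell and smooth muscle lists overlapped between the groups. The part of these cells in the differences above was not tested.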

How the data were processed

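SMART-Seq v4 libraries, which keep no strand, were made from 10 ng of RNA of isolated EDL fibers (Young, Fluo-4 normal and Fluo-4 abnormal, 4 samples each). The authors deposited TPM per gene symbol, 1 file per sample, after alignment to GRCm39 in DRAGEN 4.3. The annotation release is not given in the sources used here, and the depth is unknown. Of 55487 entries, 114 symbols on several lines were summed.

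Values were fitted as log2(TPM + 1), which understates differences of low genes, with limma 3.58.1 in R 4.3.3 (3 groups, variance trend) for 14425 protein-coding and mitochondrially-encoded genes with a mean of at least 0.02 TPM in a group, adjusted over all of them by Benjamini-Hochberg. The fit was tested on simulated data. Members, pathway lists and markers were chosen with earlier results of these data known. The text names the members, up to 4 genes of each list with the smallest p among those with an adjusted p under 0.05 (else the gene of highest mean), the 3 genes most like each member that reached 1 TPM, and the myosins. Some genes of the pathway are not reported here. Other genes named were chosen after their values were seen.

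Deviations from the group means in 5994 genes had correlations of 0.44, 0.37, 0.43 and 0.30 between same-numbered Fluo-4 abnormal and Fluo-4 normal samples (-0.36 to 0.23 for different numbers). These numbers were treated as pairs only in the replicate block and the same-number ratios, although no source says that a number marks a mouse. All other fits treated the samples as independent. The correlations were -0.08 to 0.23 (same number) and -0.16 to 0.25 (different numbers) between Fluo-4 normal and Young samples. Between Fluo-4 abnormal and Young samples they were 0.005 to 0.18 and -0.18 to 0.22. The block in comparisons with Young fibers thus joins samples without a shown pairing. The fit was repeated with TMM-type factors (30% and 5% trimmed), without mitochondrially-encoded genes in the total, with no filter or one of 5 TPM, a pseudocount of 0.1 TPM, all annotated genes, only the groups compared, a replicate block, the *Myh4* share as a covariate, these last in 1 fit, and without each sample. Coordinates are from GENCODE vM39. Near-identical copies were searched with BLAST (95% identity over at least 100 bases and 50% of the transcript). Python 3.11.15 with pandas 2.3.3 and matplotlib 3.10.9 was used for tables and figures.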

Additional observations from a re-analysis of the deposited data

Results flagged for a closer look

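Of 54 sets of 4 samples examined, 1 held a sample far from the other 3 by Dixon's test, where chance gives about 1 in 20. *Prkar1a* was at 42.5 TPM in 1 Young sample and above it in the other 3. None of the 5 subunit genes and none of the beta shares had such a sample.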

How the results depend on the processing

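The log2 differences of the 5 subunit genes in 3 comparisons kept their sign under every alternative where they exceeded the spread between replicates. Leaving out a sample could not reverse such a difference. The filters, the wider gene set, the fit of only the groups compared and the block alone leave the estimate as it is. Only scaling, the pseudocount and the *Myh4* share could thus have changed a sign. Values that moved by more than 1 SD were, between Fluo-4 abnormal and Fluo-4 normal fibers, *Atp1b1* at -1.82 with the *Myh4* share plus the replicate block, *Atp1b3* at 0.10 and *Fxyd1* at -0.21 with TMM-type factors, and *Atp1b4* at -1.39 with a pseudocount of 0.1 TPM. Between Fluo-4 normal and Young fibers they were *Atp1b1* at 0.63 with the *Myh4* share and at 0.58 with the block as well. Between Fluo-4 abnormal and Young fibers they were *Atp1b2* at 0.25 and *Fxyd1* at -0.38 with TMM-type factors, and *Atp1b4* at -0.95 with a pseudocount of 0.1 TPM. The shares of beta TPM were recomputed without *Atp1b4*, from the group means and without each sample, and moved by less than 1 SD. Leaving out a sample cannot move a mean of 4 by 1 SD, and scaling a sample leaves its shares unchanged. Nothing is therefore read from this.

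Of all genes tested, 1349 differed between Fluo-4 abnormal and Fluo-4 normal fibers (1062 higher), 852 with TMM-type factors (308 higher), 567 with only the groups compared, 821 with the *Myh4* share, 2281 with the replicate block and 22 with both, and 606 to 1420 when a sample was left out (606 without Fluo-4 abnormal replicate 2). Between Fluo-4 normal and Young fibers 166 differed, 69 with only the groups compared and 320 with the replicate block. The filter of 5 TPM left 6348 genes, of which 266 differed in this comparison. When a sample was left out, 45 (without Young replicate 2) to 184 differed. Between Fluo-4 abnormal and Young fibers 1227 differed, and 576 (without Young replicate 4) to 1677 when a sample was left out.

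Of the pathway genes, 5 differed between Fluo-4 abnormal and Fluo-4 normal fibers, 2 with TMM-type factors or only the groups compared, 3 with scaling without mitochondrially-encoded genes, 8 with the filter of 5 TPM, 10 with the replicate block, 0 with the block and the *Myh4* share, and 2 to 6 when a sample was left out (2 without Fluo-4 abnormal replicate 2 and 3 without Fluo-4 normal replicate 1 or 2). Between Fluo-4 normal and Young fibers 1 differed, 2 with TMM-type factors, the filter of 5 TPM or the replicate block, 0 with only the groups compared (5 at an unadjusted p-value under 0.05), and 1 whenever a sample was left out. Between Fluo-4 abnormal and Young fibers 3 differed, 6 with the filter of 5 TPM or with the block and the *Myh4* share, 5 with the replicate block, and 1 to 6 when a sample was left out (1 without Young replicate 1, 2 or 4 or Fluo-4 abnormal replicate 2, 3 or 4, and 6 without Fluo-4 normal replicate 1). The filter of 5 TPM left 18 pathway genes, so its 8, 2 and 6 calls are out of 18. It called 1710, 266 and 1341 of 6348 genes in these 3 comparisons. Between Fluo-4 abnormal and Young fibers, 1652 of 14425 genes differed with the block and 1224 with the block and the *Myh4* share. The causes of these changes in the counts were not tested. The replicate block in comparisons with Young fibers had no shown pairing behind it. With TPM alone, the depth that limits *Atp1b4* and the low FXYD genes is unknown.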
